A study of Equus caballus with 8 samples.

Results

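The prostaglandin genes followed here are those for making prostaglandins from arachidonic acid (PTGS1, PTGS2, PTGES, PTGES2, PTGES3 and PTGIS), for sensing them at the cell surface (PTGER2, PTGER4 and PTGFR) and for inactivating them (HPGD). They were chosen by gene symbol, and all 10 had a row among the 15266 named genes of the deposited table. The mesenchymal stem cells were grown out of sternal marrow (BM-MSCs). The labels call the 4 donor horses D, J, L and W, and each marrow gave 1 untreated and 1 TGF-β2-treated culture, 8 libraries in all. Both arms were grown in low glucose DMEM with fetal bovine serum and antibiotics, and the study's methods add basic fibroblast growth factor to that medium. The treated arm also received 1 ng/ml human recombinant TGF-β2, from isolation onwards by the sample labels and over the passages before harvest by the methods. Every horse supplied a single culture per arm, so the horses are the replicates, and the cultures are primary cells expanded on plastic and not a clonal line.

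Prostaglandins are short-lived lipid signals. Phospholipases free arachidonic acid from membranes, the cyclooxygenases PTGS1 (constitutive) and PTGS2 (inducible) turn it into the common precursor prostaglandin H2, and terminal synthases turn that precursor into prostaglandin E2 or prostacyclin. Prostaglandins are then exported, act on receptors coupled to G proteins, and are taken up and oxidised by HPGD. In marrow stromal cells, prostaglandin E2 is known as a mediator of the suppression of T cells, and in the horse it is regarded as a main immunomodulatory product of these cells.

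Reads counted per library numbered between 39184554 and 57228675. TGF-β2-response genes checked the labels, with 6 of 7 tested higher in treated cells, among them ACTA2 (smooth muscle actin). All 7 mesenchymal stromal markers had reads in every library, and THY1 and VCAM1 among them were called lower in treated cells. Of 10 leukocyte markers 6 had a row, and they summed to 506 to 2714 normalized counts in untreated and 388 to 715 in treated libraries, with CD3E (a T cell receptor subunit) at 112 in untreated J, 16.2 in untreated W and 0 in the others. CD14, AIF1, LYZ and CD79A had no row. Horse J held the largest sum in both arms, most of it CD68, and no leukocyte marker tested was called. Of 6 endothelial markers 2 had a row and summed to 7.10 to 26.3 normalized counts in untreated and 30.0 to 55.7 in treated libraries, with KDR called higher, and of 8 platelet and mast cell markers only ITGA2B had one. In bulk RNA, fewer cells of a type and less RNA per cell cannot be told apart.

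A normalized count is the number of reads of a gene divided by a size factor for the library. Values are not divided by transcript length, so levels are compared between libraries and not between genes. Fold changes are on the log2(normalized count + 1) scale, so that for genes with few reads they come out too small. A gene was called where its adjusted p (Benjamini-Hochberg) was under 0.05 and its log2 fold change lay beyond 1 in either direction in limma without a term for the horse. All 10 genes passed the filter of at least 10 normalized counts in at least 4 libraries, PTGS1 with 6 libraries, PTGER2 with 7 and HPGD with 5, the 4 untreated libraries among them.

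TGF-β2-treated BM-MSCs held far less RNA of the prostaglandin-inactivating enzyme HPGD and of the receptor PTGFR, and less of the receptor PTGER4. These 3 of the 10 genes were called lower, PTGER4 close to the threshold (limma, adjusted p = 0.0451). None was called higher. Among all 14907 genes tested 11.5% were called, 5.87% lower and 5.59% higher. The same 3 genes were called with the horse as a block, where 14.1% of all genes were called, 7.31% lower and 6.83% higher. The median log2 fold change over the 10 genes was -0.44, against 0.01 over all genes tested. In PTGFR and HPGD the untreated and treated libraries did not overlap, which held for 27.8% of all genes tested.

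**Figure D1:**
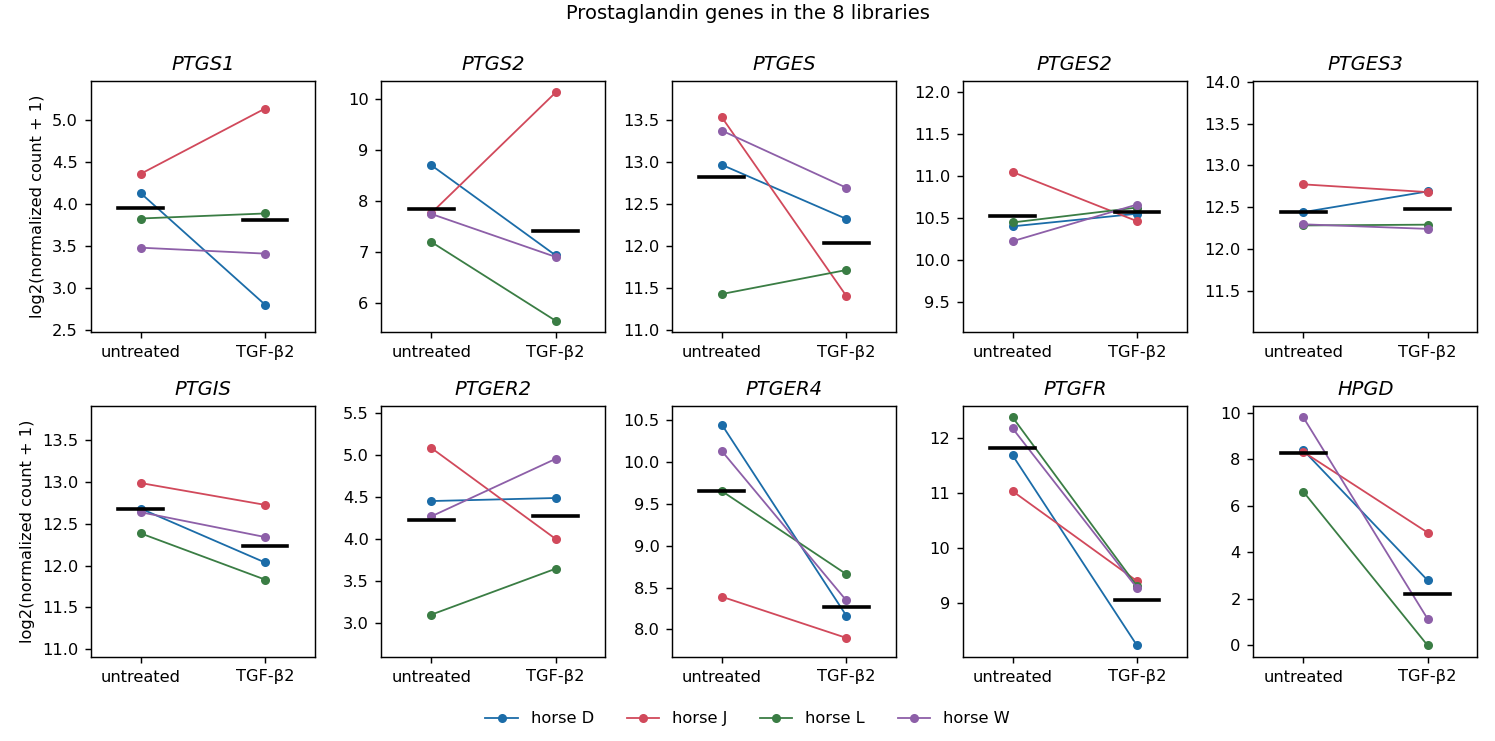
Level of each prostaglandin gene, as log2(normalized count + 1) on the vertical axis, in the untreated and TGF-β2-treated library of each horse (points joined by a line per horse; black bars are group means; each panel has its own axis range). HPGD and PTGFR fell in every horse without overlap, while PTGS2 was lower after treatment in horses D, L and W and higher in horse J.

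PTGS2 encodes the inducible cyclooxygenase, the usual rate-limiting step under stimulation. Untreated libraries held 416 normalized counts in D, 216 in J, 146 in L and 214 in W. Treated libraries held 121 in D, 1117 in J, 49.4 in L and 119 in W. Horses D, L and W had less PTGS2 after treatment and horse J had more, so that the horses moved in opposite directions. For 16.6% of all genes tested J moved one way and the other 3 horses the opposite way. Within a horse the log2 change was -1.77 in D, -1.54 in L and -0.84 in W, against 2.36 in J.

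In J the treated level was 5.17 times the untreated one, with an exact 95% interval of 4.55 to 5.87, from 321 and 1043 reads. Such intervals cover counting error only. In D it was 0.292 times (0.234 to 0.362), in L 0.338 times (0.236 to 0.477) and in W 0.556 times (0.433 to 0.709). None of these counting intervals held 1, so sampling of reads does not cover the difference between J and the other horses. With 1 culture per arm and horse, the difference between horses was not tested. The leukocyte markers were highest in J in both arms, at 2714 normalized counts untreated and 715 treated, and their part in the level of PTGS2 was not tested. A rise of over 1 on the log2 scale in J with a drop in the other 3 horses was seen for 0.912% of all genes tested. That criterion follows the pattern of PTGS2 itself, so the share is a description and not a test.

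Over all 4 horses PTGS2 had 248 ± 117 normalized counts in untreated cells against 352 ± 511 in treated ones (SD, n = 4). The log2 fold change of -0.45 had a 95% interval of -2.41 to 1.52 and a limma adjusted p of 0.751. The mean of the counts was higher in treated cells and the mean of the log values lower, and DESeq2 and edgeR without the horse gave a log2 fold change of 0.50. DESeq2 set no adjusted p for PTGS2 in that fit, and edgeR's was 0.733. Without horse J and with the horse as a block, PTGS2 was called lower, with a log2 fold change of -1.38 (limma, adjusted p = 0.0110). In that fit 8.71% of all genes tested were called lower. Without J and without the block the limma adjusted p was 0.0885, and PTGS2 was not called. J was the horse with the rise, so leaving it out keeps only horses with a drop. The call without J is therefore no separate evidence of a decrease. With the block and without D, L or W the log2 fold change was -0.0075, -0.082 or -0.32, and PTGS2 was not called.

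PTGS1, the constitutive cyclooxygenase, had few reads, 5 to 32 per library. It had 16.5, 19.5, 13.2 and 10.1 normalized counts in untreated D, J, L and W and 5.96, 34.3, 13.8 and 9.61 in treated D, J, L and W. Treated J was the highest and treated D the lowest of the 8 libraries, and the other 6 held 9.61 to 19.5. The log2 fold change was -0.14, with an interval of -1.31 to 1.03 and a limma adjusted p of 0.874. PTGS2 made up 91.7% to 96.2% of the summed normalized counts of both cyclooxygenases in untreated libraries, and 95.3%, 97.0%, 78.2% and 92.5% in treated D, J, L and W. These shares are of reads and not of molecules, and the lowest rests on 43 reads of PTGS2 and 12 of PTGS1.

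PTGES encodes the inducible microsomal prostaglandin E synthase that is coupled to PTGS2. Untreated libraries held 8018 normalized counts in D, 11886 in J, 2750.5 in L and 10645 in W. Treated libraries held 5124 in D, 2707 in J, 3356 in L and 6634 in W. The level was lower after treatment in D, J and W and higher in L, which had by far the lowest untreated level. PTGES had 8325 ± 4051 normalized counts in untreated cells against 4455 ± 1776 in treated ones (SD, n = 4). Its log2 fold change was -0.79, with a 95% interval of -1.89 to 0.31 and a limma adjusted p of 0.272, or 0.158 with the block. The largest decrease within a horse, -2.13 on the log2 scale, was that of J, the horse in which PTGS2 was higher after treatment. The untreated library of J also held the largest sum of leukocyte markers, whose part in the level of PTGES was not tested. Without horse J the log2 fold change of PTGES was -0.35.

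PTGES2, a membrane-associated prostaglandin E synthase, and PTGES3, a cytosolic one that also serves as a cochaperone of HSP90, did not pass the test. PTGES2 had 1349, 2116, 1393 and 1192 normalized counts in untreated D, J, L and W and 1497, 1408, 1576 and 1616 in treated D, J, L and W. PTGES3 had 4981 to 7001 in untreated and 4842 to 6602 in treated libraries. Untreated J had the most of both. The log2 fold changes were 0.04 for PTGES2 (95% interval -0.35 to 0.44) and 0.03 for PTGES3 (-0.33 to 0.38), with limma adjusted p of 0.883 and 0.922. Of the summed normalized counts of the 3 prostaglandin E synthases, PTGES made up 53.7%, 56.6%, 30.1% and 63.1% in untreated and 38.7%, 25.4%, 33.7% and 50.7% in treated D, J, L and W.

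PTGIS encodes prostacyclin synthase, which makes a Gs-coupled vasodilator and antiplatelet prostanoid. Untreated libraries held 6567 normalized counts in D, 8112 in J, 5349 in L and 6372 in W. Treated libraries held 4201 in D, 6769 in J, 3647 in L and 5186 in W. Treated J lay above 3 of the untreated libraries, so the groups overlapped, but the level was lower in every horse. The drop was larger in D and L than in J and W. A level lower in all 4 horses was seen for 25.6% of all genes tested. The log2 change within a horse ran from -0.64 to -0.26, and the log2 fold change was -0.44 ± 0.21 (SE). The limma adjusted p was 0.161, and 0.0247 with the horse as a block, where such a p under 0.05 was reached by 30.9% of all genes tested, against 22.8% without the block. The change stayed short of the fold change threshold in both fits.

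PTGER2 encodes EP2, a receptor for prostaglandin E2 that raises cyclic AMP through Gs. It had few reads, with 20.9, 33.0, 7.54 and 18.3 normalized counts in untreated D, J, L and W and 21.4, 15.0, 11.5 and 30.0 in treated D, J, L and W. The level was lower in J and higher in the other horses, and the groups overlapped. The log2 fold change was 0.05, with a 95% interval of -1.06 to 1.16 and a limma adjusted p of 0.958. The interval thus held a log2 change of 1 in either direction. It is not adjusted for the 14907 genes tested, so a change beyond it could also have gone uncalled.

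PTGER4 encodes EP4, the other Gs-coupled receptor for prostaglandin E2. Its untreated levels were 1394 normalized counts in D, 335 in J, 804 in L and 1120.1 in W. Its treated levels were 286 in D, 238 in J, 404 in L and 324 in W. The untreated library of J lay among the treated values, so the groups overlapped, although the level was lower after treatment in all 4 horses. Being lower in all 4 horses held for 25.6% of all genes tested. PTGER4 fell from 913 ± 455 to 313 ± 70.1 (SD, n = 4), a log2 fold change of -1.39 ± 0.42 (SE; limma, adjusted p = 0.0451). The untreated libraries spanned 4.17 times from lowest to highest and the treated ones 1.70 times. The call was close to the threshold. It was lost with horse D, L or W left out, in either limma fit, and the adjusted p then ran from 0.0520 to 0.209.

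PTGFR encodes the receptor for prostaglandin F2α, which signals through Gq and calcium. Untreated libraries held 3297 normalized counts in D, 2099 in J, 5316 in L and 4623 in W. Treated libraries held 301 in D, 678 in J, 636 in L and 621 in W. The groups were far apart. Horse J was lowest of the untreated libraries, and treated D lay well below the other treated ones, which were close to each other. PTGFR fell from 3834 ± 1428 to 559 ± 173 (SD, n = 4), a log2 fold change of -2.76 ± 0.35 (SE; limma, adjusted p = 0.00194). The decrease within a horse ran from -3.45 in D to -1.63 in J on the log2 scale, and PTGFR was called under every alternative run.

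HPGD encodes the NAD-dependent hydroxyprostaglandin dehydrogenase that takes the first step in prostaglandin breakdown. Its level in untreated cells was 336 normalized counts in horse D, 319 in J, 97.1 in L and 898 in W. In treated cells it was 5.96 in D, 27.8 in J, 0 in L and 1.20 in W. Every treated library lay below every untreated one, and horse J kept the most. The mean went from 412 ± 341 to 8.75 ± 13.0 normalized counts (SD, n = 4), with a log2 fold change of -6.09 ± 1.07 (SE; limma, adjusted p = 0.00646). By size of decrease HPGD ranked 12 of the 14907 genes tested. The summed leukocyte markers, at 506 to 2714 normalized counts untreated and 388 to 715 treated, overlapped between the arms, and their part in the level of HPGD was not tested.

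The treated libraries held 5 reads of HPGD in D, 26 in J, 0 in L and 1 in W, against 103 to 885 in the untreated ones. In horse D the untreated level was 56.4 times the treated one, with an exact 95% interval of 24.0 to 175, and in J it was 11.5 times (7.73 to 17.7). In L the level was at least 28.1-fold lower, set against a floor of 3 reads. In W the ratio was 747, with an interval of 134 to 29553 because it rests on a single read. The drop was thus seen in every horse, and its size was poorly fixed in L and W. Without horse D or without horse W, and with no term for the horse, the adjusted p of HPGD from limma was 0.0543 or 0.0584, and HPGD was not called. With the horse as a block it was called with any horse left out.

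**Figure D2:**
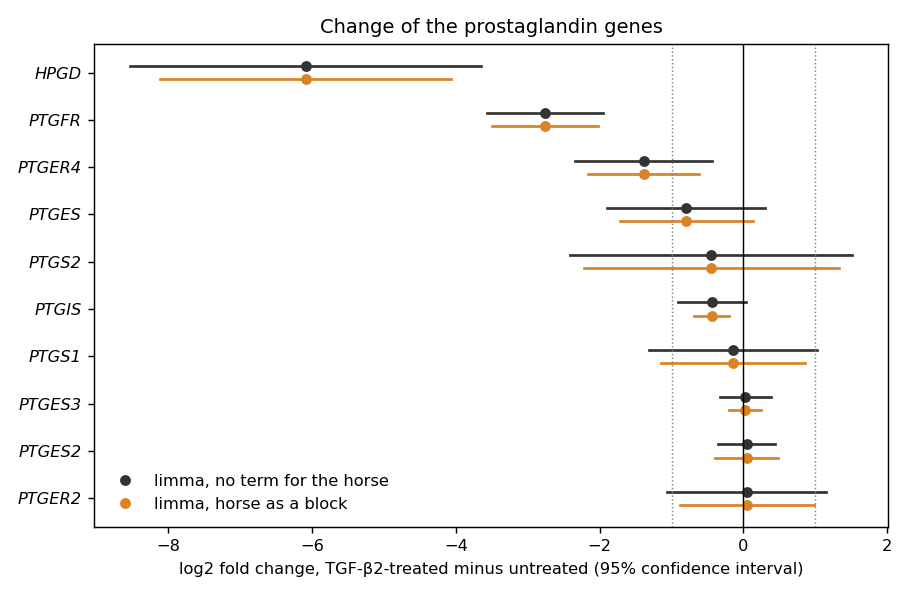
Log2 fold change of each prostaglandin gene in TGF-β2-treated minus untreated BM-MSCs (points) with its 95% confidence interval (lines), from limma without a term for the horse (black) and with the horse as a block (orange); dotted lines mark an absolute log2 fold change of 1. The intervals of HPGD, PTGFR and PTGER4 lie below 0 in both fits, and the widest of the genes not called is that of PTGS2.

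The horses themselves differed. In untreated cells the highest library held 9.25 times the lowest for HPGD, 4.38 times for PTGER2, 4.32 times for PTGES and 4.17 times for PTGER4. For PTGES3 and PTGIS the untreated span was 1.41 and 1.52 times. Horse L had the lowest untreated level of HPGD, PTGS2, PTGES, PTGIS, PTGER2 and PTGES3, and the highest of PTGFR. Horse J had the lowest untreated level of PTGER4 and PTGFR.

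For the 3 called genes, the nearest profiles over the 8 libraries were sought among 11761 genes with a mean of at least 100 normalized counts, by the root mean square difference of log2 values centred on each gene's mean. The libraries share horses and the treatment contrast, so nearness is a description. HPGD lay nearest to CXCL12, the chemokine that holds blood stem cells in marrow, at 0.56, then to the adhesion molecule VCAM1 and to LOC106783107, both at 0.93, where the median gene lay at 3.42. CXCL12 had 12274, 8048, 4030.1 and 17573 normalized counts in untreated and 170.3, 1049, 50.6 and 149 in treated D, J, L and W. As for HPGD, L was lowest in both arms, and J kept the most after treatment. PTGFR lay nearest to ACKR2 (a scavenging chemokine receptor) at 0.27, EGR1 and SDC3, and PTGER4 to KLHDC9 at 0.22, FZD1 (a WNT receptor) and MCAM.

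The wider eicosanoid pathway was followed through 7 lists with 99 symbols, of which 60 had a row and 58 were tested. Without the horse 10 of the 58 were called, 2 higher and 8 lower, and with the horse as a block 15, 4 higher and 11 lower. The shares of 17.2% and 25.9% stand beside 11.5% and 14.1% of all genes tested. The lists were chosen with earlier results of these data known, so these shares are a description and not a test. PLA2G2A, ALOX15, GGT5, RAPGEF3 and ADCY2 passed the filter only through the arm in which they were higher. With the filter at 50 normalized counts, 6 pathway genes were called. The median log2 fold change of the 58 genes was -0.29.

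**Figure D3:**
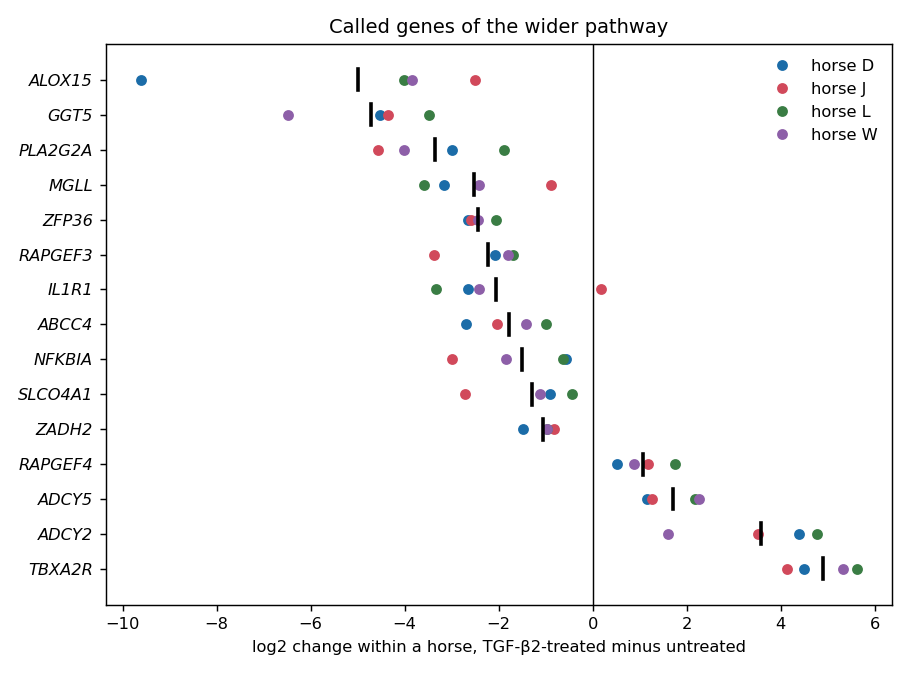
Log2 change within each horse (coloured points) of the 15 genes of the wider pathway lists called with or without the horse as a block, with the log2 fold change over the 4 horses as a black bar. TBXA2R rose in all 4 horses, and IL1R1 was lower after treatment in D, L and W and slightly higher in J.

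Among the other receptors, TBXA2R, which encodes the thromboxane A2 receptor, rose most. It had 60.0, 26.3, 71.6 and 58.8 normalized counts in untreated D, J, L and W and 1367, 475, 3553 and 2404 in treated D, J, L and W. The groups were far apart, with every treated library more than 6 times the highest untreated one. The log2 fold change was 4.89 ± 0.61 (SE; limma, adjusted p = 0.00180), and TBXA2R ranked 51 by size of increase among all genes tested. ITGA2B, the sole platelet and mast cell marker with a row, had 445 to 610 normalized counts in untreated and 283 to 374 in treated libraries. The 2 endothelial markers with a row summed to 7.10 to 26.3 in untreated and 30.0 to 55.7 in treated libraries. The part of such cells in the level of TBXA2R was not tested. TBXA2R was the sole called gene of the 4 other receptor genes tested, beside 5.59% of all genes tested called higher. The other 3, among them PTGFRN (a protein that binds the prostaglandin F receptor), were not called. PTGER3, PTGDR and PTGIR, also on this list, had no row.

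Of 6 transport and breakdown genes other than HPGD tested, 2 were called lower and none higher. The shares over all genes tested were 5.87% lower and 5.59% higher. ABCC4, the efflux pump that exports prostaglandins, had 1458, 838, 459 and 657 normalized counts in untreated and 225, 202, 231 and 244 in treated D, J, L and W. The treated libraries were nearly alike while the untreated ones differed, and the log2 fold change was -1.79 (limma, adjusted p = 0.00664). With the block and without W the ABCC4 call was lost (limma, adjusted p = 0.0511). ZADH2, a prostaglandin reductase, fell from 2830.4 ± 516 to 1339.7 ± 55.2 normalized counts (SD, n = 4), with a log2 fold change of -1.06 (limma, adjusted p = 0.00162). Without D the log2 fold change of ZADH2 was -0.92, short of the fold threshold. PTGR2, another reductase of this step, fell by 0.68 on the log2 scale, short of the fold threshold, with a limma adjusted p of 0.00624. SLCO3A1, an uptake carrier, fell by 0.86 with a limma adjusted p of 0.00662. SLCO4A1, a related carrier, was called lower in limma with the block, at an adjusted p of 0.0473 against 0.162 without it. That blocked call was lost with any horse left out. Without the block DESeq2 called SLCO4A1 (adjusted p = 0.0197) and edgeR did not. Its untreated library of J held 5624 normalized counts, and the other 3 held 617 to 2084.

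Of 12 genes for the release of arachidonic acid tested, 2 were called lower and none higher. Over all genes tested 5.87% were called lower and 5.59% higher. PLA2G2A, a secreted phospholipase A2, had 63.5, 47.8, 36.7 and 53.8 normalized counts in untreated and 7.15, 1.07, 9.20 and 2.40 in treated D, J, L and W. It passed the filter through its untreated libraries alone. Its log2 fold change was -3.36 (limma, adjusted p = 0.00444), and the call was lost with the block and without W (0.0522). In the RefSeq annotation of another horse assembly PLA2G2A overlaps PLA2G5, and the strand setting of the counting is not given in the sources used here. MGLL, the monoacylglycerol lipase, had 4768, 4852, 14540.2 and 3514 in untreated and 529, 2634, 1199 and 657 in treated D, J, L and W. Its log2 fold change was -2.52 (limma, adjusted p = 0.0182). The MGLL call was lost without D or W in either limma fit (adjusted p 0.0644 to 0.0999), and without L and with no block (0.0614). PLA2G4A, the cytosolic phospholipase A2 that supplies the cyclooxygenases, had a log2 fold change of -0.76 (limma, adjusted p = 0.199; 0.0306 with the block). It was least changed in J, where the level was 2126 normalized counts untreated and 1909 treated. ANXA1, which had the most reads of this list, was not called, with a log2 fold change of 0.26.

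Of the other synthases only AKR1B1, an aldose reductase with prostaglandin F synthase activity, passed the filter. It rose by 0.82 on the log2 scale in the mean of 4 horses, from 3714 ± 219 to 6546 ± 518 normalized counts (SD, n = 4), without overlap and with a limma adjusted p of 0.00129, short of the fold threshold. Of the leukotriene and lipoxygenase branch 2 of 5 genes were called lower, beside 5.87% of all genes tested. GGT5, which converts leukotriene C4, had 76.6, 151, 87.6 and 197 normalized counts in untreated and 2.38, 6.42, 6.90 and 1.20 in treated D, J, L and W. Its log2 fold change was -4.71 (limma, adjusted p = 0.00124). ALOX15, a lipoxygenase that oxygenates arachidonic acid, had 776, 22.9, 15.1 and 64.9 in untreated and 0, 3.21, 0 and 3.60 in treated D, J, L and W. In limma its adjusted p was 0.0214, and most of its untreated reads came from horse D. The ALOX15 call was lost without W in either limma fit (adjusted p 0.0924 and 0.0946), without L with the block (0.0659) and without D with no block (0.0621), where the log2 fold change was -3.45. DESeq2 without the block set no adjusted p for it. Both genes passed the filter through their untreated libraries alone. GPX4, which had the most reads of this branch, was not called.

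Downstream of EP2, EP4 and the prostacyclin receptor, 18 genes of Gs and cyclic AMP signalling were tested. Of these, 1 was called higher and 1 lower, and with the block 3 higher and 1 lower. Among all genes tested 11.5% were called, and 14.1% with the block. PTGIR, which encodes the prostacyclin receptor, had no row. ADCY2, an adenylyl cyclase, had 0.673 to 4.06 normalized counts in untreated and 14.4 to 103 in treated libraries, a log2 fold change of 3.57 (limma, adjusted p = 0.00834). Without D the ADCY2 call was lost in both limma fits (adjusted p 0.0753 and 0.0555). It passed the filter through its treated libraries alone. RAPGEF3, the cyclic AMP sensor EPAC1, had 39.7 ± 31.9 normalized counts untreated and 6.29 ± 1.19 treated (SD, n = 4). Its log2 fold change was -2.24 (limma, adjusted p = 0.0124), and the call was lost in both limma fits without D or W (0.0521 to 0.0709). Its untreated level was 87.5 in J and 23.3 to 24.5 in the other horses, and it too passed through its untreated libraries alone. ADCY5 and RAPGEF4 were called higher by limma with the block, with adjusted p of 0.00830 and 0.0377, against 0.242 and 0.491 without it. The blocked call of RAPGEF4 was lost with any horse left out (limma, adjusted p 0.0766 to 0.106), and that of ADCY5 without W (0.0525). PRKAR1A, a regulatory subunit of protein kinase A with the most reads of this list, fell by 0.93 on the log2 scale with a limma adjusted p of 0.00825, short of the fold threshold.

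**Figure D4:**
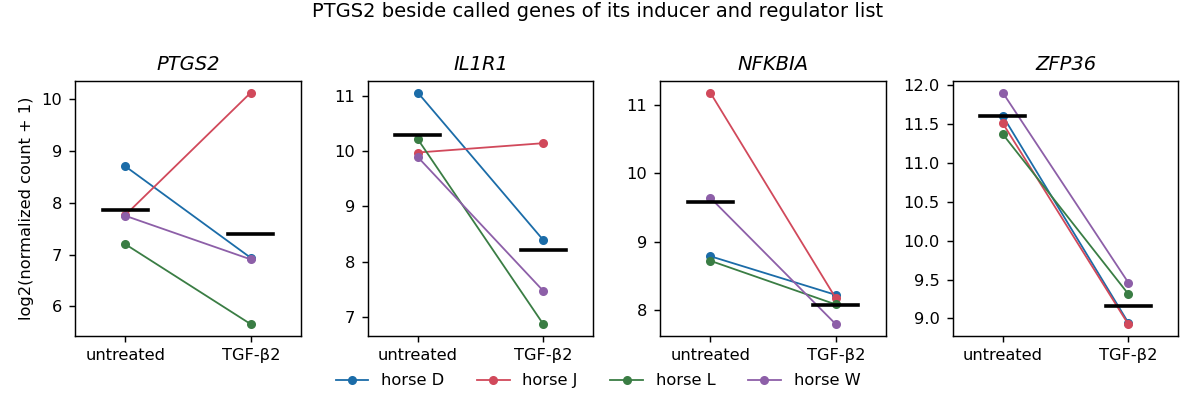
Level of PTGS2 and of the 3 called genes from the list of its inducers and regulators, as log2(normalized count + 1), in the untreated and TGF-β2-treated library of each horse (points joined by a line per horse; black bars are group means; each panel has its own axis range). ZFP36 and NFKBIA were lower after treatment in every horse, whereas IL1R1, like PTGS2, was higher in treated J than in the treated libraries of D, L and W.

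Of 12 inducers and RNA-binding regulators of PTGS2 tested, 1 was called lower without the block and 3 with it. The shares called lower over all genes tested were 5.87% and 7.31%. ZFP36, tristetraprolin, which destabilises AU-rich mRNAs including that of PTGS2, had 3120.1, 2921, 2652 and 3842 normalized counts in untreated and 492, 485, 636 and 704 in treated D, J, L and W. The groups were far apart, and the level dropped in J as in the other horses. The log2 fold change was -2.44 ± 0.17 (SE; limma, adjusted p = 2.38e-04). IL1R1, the receptor for the PTGS2 inducer interleukin-1, had 2126, 1004, 1186 and 949 in untreated and 335, 1128, 116 and 177 in treated D, J, L and W. In J it held its level, with a log2 change of 0.17, while in D, L and W the change ran from -3.34 to -2.42. In limma its adjusted p was 0.0525, just short of a call, and 0.0433 with the block. IL1R1 was also called without the block by DESeq2 (adjusted p = 0.0481), under total scaling and without horse J, and was not called by edgeR in either fit. NFKBIA, an inhibitor and target of NF-kB, had a log2 fold change of -1.51 (limma, adjusted p = 0.0611, and 0.0479 with the block). The blocked calls of IL1R1 and NFKBIA were lost without D, L or W (limma, adjusted p 0.0617 to 0.173). Untreated J held 2317 normalized counts of NFKBIA and 195 of IL6, against 421 to 798 and 13.9 to 22.3 in the other untreated libraries. ZFP36L1, a relative of ZFP36 with the most reads of this list, was not called. It too moved the other way in J, by 0.35, against -1.20 to -0.81 in the other horses. Such an opposite move of J was seen for 16.6% of all genes tested. A link of IL1R1 or ZFP36L1 to the level of PTGS2 was not tested.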

How the data were processed

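The 8 libraries were paired-end poly(A) RNA-seq. Upstream, the authors used Trimmomatic 0.36 (trimming), STAR (alignment to EquCab 3.0), featureCounts from Subread 1.5.2 (unique hits per gene) and DESeq2. They deposited normalized counts, a signal that is never negative, for 15267 rows, of which 1 had no gene name (0.0281% to 0.0531% of a library's total) and was left out. The authors' deposited signal values were whole multiples of 1 step per library. Whole reads were thus recovered for 100% of the values within 0.01 of a read. On those reads DESeq2 and edgeR called 2051 and 1680 genes without the horse, and 2343 and 2059 with it. DESeq2 with the horse on all listed genes called 1148 higher and 1319 lower, the counts that the study reports. Columns were matched to samples by their description.

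Log2(normalized count + 1) of the 14907 genes that reached 10 normalized counts in 4 or more libraries was fitted in limma 3.58.1 (R 4.3.3; lmFit, then eBayes with trend), the main test. The untreated and treated cultures are matched by horse, but the main model had no horse term. Libraries of the same horse, named in the labels, deviated from their group means together (correlation across genes 0.386 to 0.609, mean 0.480), so the fit with the horse as a block stands beside it. Also tried were pseudocounts of 0.5 and 5, all genes unfiltered, a filter at 50, other scalings, no trend, DESeq2 1.42.0 and edgeR 4.0.16 with and without the horse, no fold threshold, and each horse left out. DESeq2 on all listed genes was added after the values were seen. Ratios within a horse have exact (Clopper-Pearson) 95% intervals. The procedures were tested on simulated data. The genes and lists were chosen with earlier results of these data known. Genes named are the 10 prostaglandin genes, list genes called in either fit, the gene with most reads of each list, the nearest profiles, and others chosen after their values were seen (PLA2G4A, PTGR2, SLCO3A1, IL6 and the marker genes). All 10 genes matched RefSeq symbols of assembly TB-T2T, in which lncRNA genes overlap PTGES and PTGER2. No coordinates or sequences are given, since that build differs and no sequence was at hand. Some items are not reported here.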

Additional observations from a re-analysis of the deposited data

Results flagged for a closer look

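The 10 prostaglandin genes and the 15 called genes of the wider pathway were screened for a library far from the other 3 of its group. This gave 50 groups in all. Chance would flag about 1 in 20 independent groups of normally distributed values. These were unlogged counts of the same libraries, partly of genes taken because they were called, so that share is a rough guide. In 6 groups the highest or lowest library's gap to its neighbour, as a share of the group's range, exceeded Dixon's 95% critical value. PTGS2 in treated J, with 1117 normalized counts, lay far above the other treated libraries. PTGFR in treated D, with 301, lay below the other treated libraries. In untreated L, MGLL had 14540.2, and in untreated D, ZADH2 had 3599 and ALOX15 had 776, each far above the other untreated libraries. RAPGEF3 had 87.5 in untreated J. No explanation of these values was tested.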

How the results depend on the processing

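With each horse left out, 1 to 4 of the prostaglandin genes and 5 to 16 of the 58 pathway genes were called, against 3 and 10. PTGFR alone was called without D or W and no block, and the fourth, without J and with the replicate block, was PTGS2. No trend and upper-quartile scaling each called 2, losing PTGER4 at adjusted p of 0.0569 and 0.0508, and every other alternative with 4 horses called 3. Pathway calls were 6 with the filter at 50, which left PLA2G2A, ALOX15, ADCY2 and RAPGEF3 untested. The calls were 18 under total scaling and 21 with no fold threshold. DESeq2 with the block called 16 (also on all listed genes), and limma with the replicate block 15.

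Total scaling moved the median gene by -0.30 on the log2 scale, with 27.6% of calls higher against 48.8%, and log2 fold changes became -0.27 for PTGES2, -0.28 for PTGES3 and -0.25 for PTGER2, all within 0.1 of that shift. Without the horse, DESeq2 and edgeR gave 0.10 for PTGS1, 0.50 for PTGS2 and -0.048 (edgeR -0.049) for PTGER2, and on all listed genes DESeq2 gave 0.10, 0.50 and -0.045. Leaving out a horse gave -0.45 to 0.26 for PTGS1, -0.086 to 0.26 for PTGES2, -0.046 to 0.068 for PTGES3 and -0.17 to 0.42 for PTGER2. The cause was not tested. HPGD ran from -6.96 to -4.95, PTGFR from -3.13 to -2.53 and PTGER4 from -1.70 to -1.09 over 24 alternatives. Few reads limit PTGS1, PTGER2 and treated HPGD.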
